A study of Mus musculus with 8 samples.

Results

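The Esrrb locus was examined in 8 Flag CUT&Tag libraries made from fibroblasts of mouse embryos (MEFs) 3 days into reprogramming. In CUT&Tag an antibody tethers the transposase Tn5 to a chromatin protein, here through the Flag epitope of the delivered factor, and the DNA nearby is tagged and sequenced. The delivered factors were Nanog, Nr5a2, Oct4 and Sox2. Each came in its native form and with BiD, the part of SS18 that interacts with BRG1, at the N-terminus (NanogBiD, Nr5a2BiD, Oct4BiD, Sox2BiD). Per the study's methods, OG2 MEFs came from mid-gestation embryos of OG2 males, which carry an Oct4-GFP reporter, crossed to wild-type females of another strain, all factors were delivered with pMXs retroviruses, and cells were kept in iCD3 medium. Factors that may have been delivered beside the tagged one are not given in the titles, and each factor and form had 1 library, so no value below has a replicate and no test was made.

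Esrrb (ENSMUSG00000021255.17) lies on the plus strand of mm10 chromosome 12, from 86361117 to 86521628, a gene of 160.5 kb. Peaks were selected on position: a peak was counted when its summit lay in the gene body or within 100 kb of the first annotated start site, a window of 260.5 kb from 86261117 to 86521628. This chose 54 of the 661009 peaks in the 8 lists, and overlapping peaks merged into 32 sites of 306466 in the genome. The gene itself was chosen by its summit counts in the Nanog libraries, known from earlier work on these lists, so its Nanog counts are a description. Positions below are distances from the first start site, and negative values lie upstream.

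Esrrb encodes estrogen-related receptor beta, an orphan nuclear receptor of the naive pluripotency network that helps to maintain self-renewal of embryonic stem cells. It is a known target of NANOG in those cells, it is repressed by TCF7L1 when Wnt signalling is low, and it works with the coactivator NCOA3. Esrrb and NR5A2, another nuclear receptor, both recognise a single receptor site with extra bases on its 5′ side, and Esrrb can assist the induction of pluripotency. The study names it among the genes tied to NanogBiD and BRG1. Its CUT&Tag there was on cells given Nanog or NanogBiD together with Oct4, at a later day than here. None of the libraries here profiles BRG1. BRG1 is an ATPase that drives chromatin remodelling by the BAF complex.

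The stretches of genome under the summits that carry the account are given first, as RefSeq GRCm38 sequence on the plus strand, the summit with 50 bp on each side. Capitals mark words of the searched motifs on either strand. The NR5A words were TCAAGGTCA, TCAAGGCCA, CCAAGGTCA and CCAAGGCCA, the octamer bound by Oct4 was ATGCAAAT, the SOX word was CCATTGTT, the NANOG word was GCCATTA, and the AP-1 words were TGACTCA and TGAGTCA. The first pair lies in the site with peaks of the most libraries, the third is the highest Oct4BiD summit, the fourth is 1 of 2 equally high NanogBiD summits that lead those without a native Nanog peak, the fifth is the highest summit of the locus, and the last lies in the site with summits of 3 factors within 80 bp.
native Nr5a2 at 4.49 kb, chr12:86365561-86365661: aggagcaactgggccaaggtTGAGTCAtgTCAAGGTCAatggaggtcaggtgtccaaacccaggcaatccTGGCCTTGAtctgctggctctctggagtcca
Oct4BiD at 3.08 kb, chr12:86364145-86364245: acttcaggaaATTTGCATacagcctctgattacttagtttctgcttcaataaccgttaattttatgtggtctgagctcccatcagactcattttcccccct
Oct4BiD at -31.5 kb, chr12:86329616-86329716: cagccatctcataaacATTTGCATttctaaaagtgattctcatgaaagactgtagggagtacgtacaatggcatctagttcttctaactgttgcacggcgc
NanogBiD at -89.0 kb, chr12:86272025-86272125: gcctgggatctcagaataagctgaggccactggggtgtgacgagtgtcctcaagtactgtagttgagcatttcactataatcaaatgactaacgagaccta
native Nr5a2 at 122.5 kb, chr12:86483600-86483700: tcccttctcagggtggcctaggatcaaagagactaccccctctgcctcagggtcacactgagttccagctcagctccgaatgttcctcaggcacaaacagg
Oct4BiD at 72.5 kb, chr12:86433525-86433625: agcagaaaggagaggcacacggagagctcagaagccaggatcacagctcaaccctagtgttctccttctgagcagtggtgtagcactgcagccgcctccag

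The lists held from 54794 to 120594 peaks, the median summit height ranged from 16 to 22 tags, and the lowest called height ranged from 6 to 10 tags. Heights are whole tags and are not scaled to depth. As a check of the labelled cell type, 8 fibroblast genes had a promoter peak (summit within 2 kb of a start site) in 4 to 8 of the 8 libraries each, and 3 of them in all 8. Of 4 genes of other cell types, Pecam1 had one in 5 libraries, Cdh5 and Ptprc in 2 each, and Krt14 in 0. Promoter peaks are not expression, and binding in fewer cells cannot be told apart from weaker binding in each cell.

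Nr5a2 and NanogBiD held most of the summits at Esrrb. Native Nr5a2 had 19 summits, Nr5a2BiD 11 and NanogBiD 14, while native Nanog had 3, Oct4BiD 4, Sox2BiD 2, native Sox2 1 and native Oct4 0. Set against the size of each list, this was 1.85 summits per 10000 peaks in NanogBiD (95% exact binomial interval 1.01 to 3.10), 1.76 in native Nr5a2 (1.06 to 2.75) and 1.44 in Nr5a2BiD (0.720 to 2.58). The intervals of these 3 libraries overlap each other, and each also overlaps those of Oct4BiD and native Nanog given next. That of Nr5a2BiD overlaps the interval of native Sox2 as well. The share was 0.426 in Oct4BiD (0.116 to 1.09), 0.408 in native Nanog (0.0842 to 1.19), 0.172 in native Sox2 (0.00435 to 0.958) and 0.166 in Sox2BiD (0.0201 to 0.599). The count of 0 in native Oct4 allows up to 3 summits, or 0.548 per 10000 peaks, as a one-sided limit (the two-sided interval used for the other libraries would end at 0.673). Intervals and this limit cover counting error only.

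**Figure D1:**
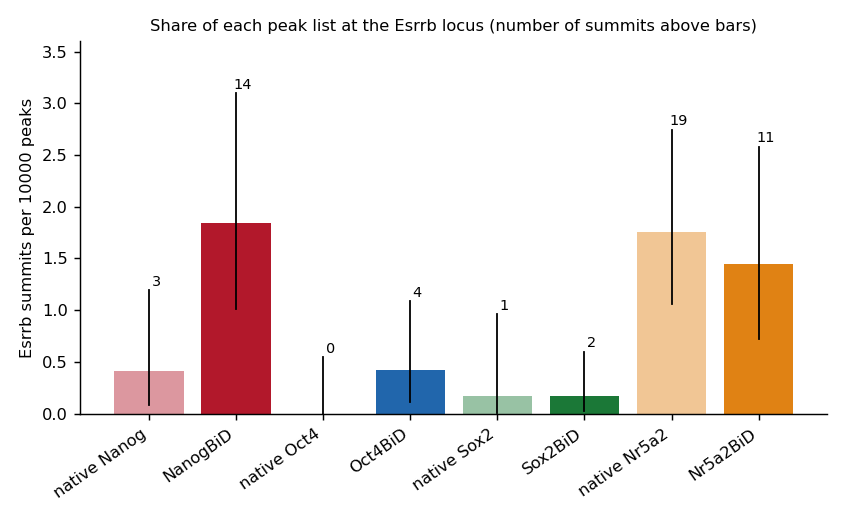
Esrrb summits per 10000 peaks of each library, with exact 95% intervals as lines and the number of summits above each bar (for native Oct4, at 0, the line ends at the one-sided limit of 0.548 that a count of 0 allows). The shares of NanogBiD (1.85), native Nr5a2 (1.76) and Nr5a2BiD (1.44) are above those of the other 5 libraries, whose highest is 0.426. Their intervals overlap those of Oct4BiD and native Nanog, and the gene was chosen by its Nanog counts.

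Outside the Nanog libraries, summit density at Esrrb was near or below that of the median gene. Among 21938 protein-coding genes, each with the same kind of window, 32.3% had at least as many summits per 100 kb as Esrrb in NanogBiD, 48.9% in native Nr5a2 and 54.1% in Nr5a2BiD. The genes at least as dense made up 80.0% for native Nanog and 81.1% for Oct4BiD. They made up 88.1% for native Sox2 and 89.3% for Sox2BiD. The density at Esrrb was above that of the median gene in NanogBiD (5.37 summits per 100 kb against 4.0) and below it in native Nanog (1.15 against 3.5). Esrrb was chosen by its Nanog counts, so nothing is read from its place in these libraries.

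**Figure D2:**
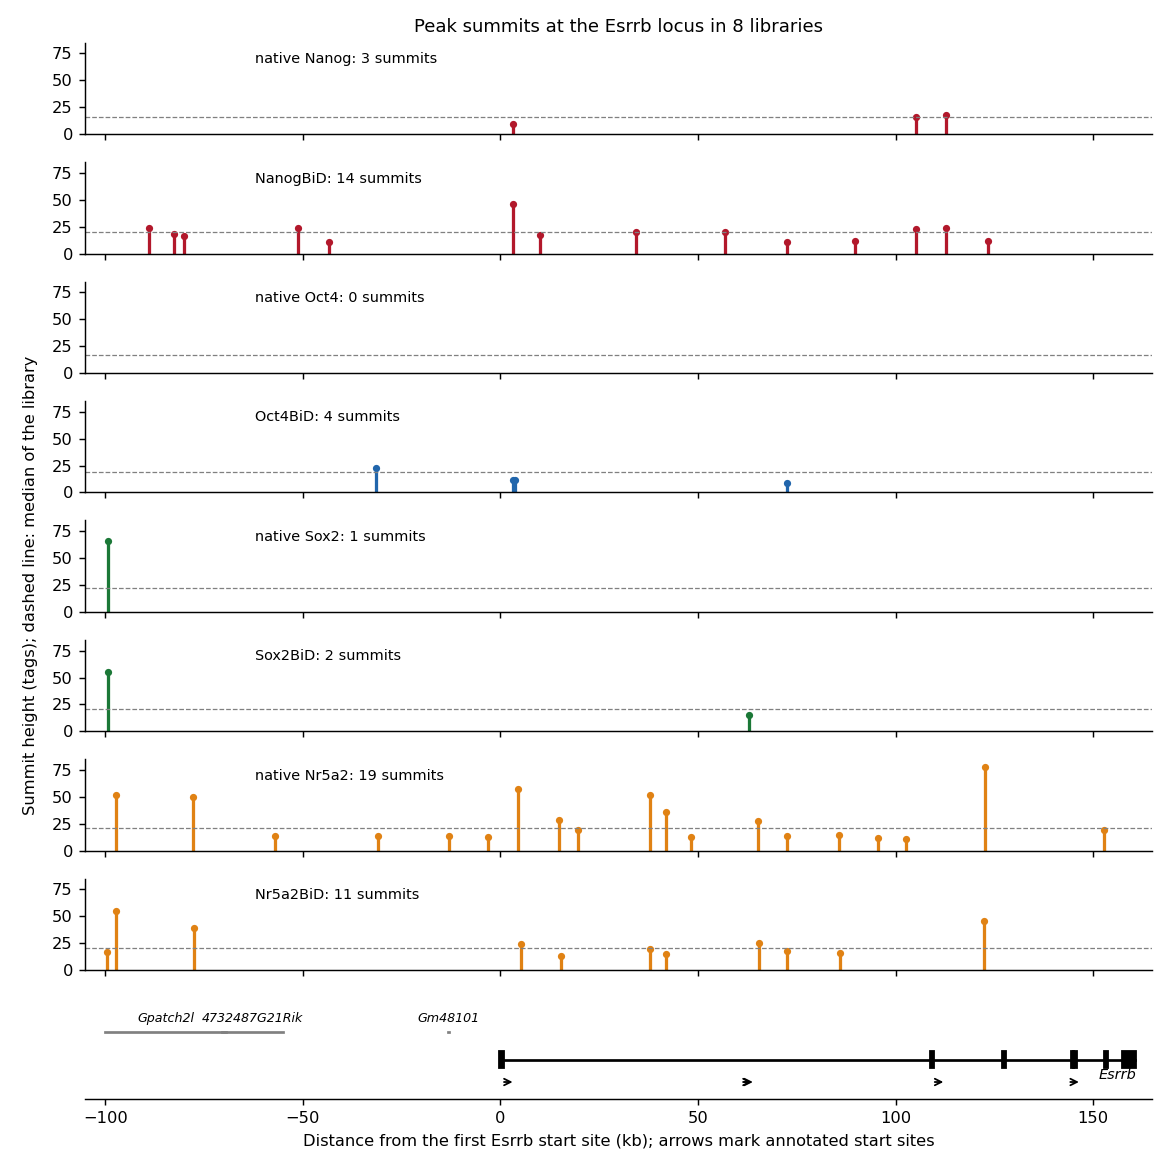
Each line is a peak summit, placed by its distance from the first Esrrb start site in kb and drawn to its height in tags, in 8 panels of 1 library each, with the library's median height dashed. Below them are the exons of the longest Esrrb transcript (drawn wider than scale), arrows at annotated start sites and the other genes of the window. NanogBiD has 14 summits spread over the window where native Nanog has 3, and the highest summit, of 78 tags, belongs to native Nr5a2.

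No peak reached over a start site of Esrrb or over any of the 16 different exons of its 6 annotated transcripts. Of the 54 summits, 37 lay in the gene body, each in an intron, and 17 lay upstream. Intron 1 of the longest transcript held 31, intron 2 held 5 and intron 5 held 1. Esrrb has annotated starts at 0, 60.5, 60.8, 109 and 143 kb, and 0 summits lay within 2 kb of any of them. The nearest was a Sox2BiD summit of 15 tags, 2.22 kb beyond the start at 60.8 kb. The summit nearest to the first start was an Oct4BiD summit of 12 tags at 3.08 kb. Of the upstream summits, 10 lay within Gpatch2l, the neighbouring gene, which ends at -69.3 kb. In it, 1 summit each of native Sox2, Sox2BiD and Nr5a2BiD lay on an exon of Gpatch2l, and a native Nr5a2 summit at -13.1 kb lay on the pseudogene Gm48101.

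NanogBiD had 14 summits at Esrrb and native Nanog had 3, a log2 ratio of 2.05 after 0.5 was added to each count. Esrrb was chosen by these counts, so nothing is read from the size of the ratio. Between the same libraries, 3.08% of 18509 genes with at least 4 summits were at least 2-fold higher with BiD and 1.99% at least 2-fold lower, and the median gene stood at 0.19. In the gene body alone the counts were 9 and 3, and upstream they were 5 and 0, with 3 of those 5 inside Gpatch2l.

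The 3 native Nanog summits each had a NanogBiD peak over them, as had 72.7% of all native Nanog peaks. The NanogBiD summit was higher at each, as at 66.5% of such positions in the genome, where the median log2 ratio of heights was 0.26. At 3.28 kb, in intron 1, native Nanog had 9 tags, below its library median of 16, and NanogBiD had 46 tags, 177 bp away. At 105.2 kb, near the end of intron 1, native Nanog had 16 tags and NanogBiD 23. At 112.6 kb, in intron 2, native Nanog had 18 tags and NanogBiD 24. At Esrrb the median log2 ratio was 0.52 (SD 1.09 over 3 sites), or 0.20 with heights set over the library medians and 0.21 per uniquely mapped read pairs, and the site at 3.28 kb, at 2.35, stood apart from the values of 0.52 and 0.42 at the others. In order of score, the NanogBiD peak at 3.28 kb ranked 4144 in its list of 75769, and the native peak ranked 59935 of 73465.

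The other 11 NanogBiD summits had no native Nanog peak, and 29.9% of all NanogBiD peaks had none. Esrrb was chosen by its Nanog counts. With so few native summits in the window, most NanogBiD summits had to lack one, so nothing is read from this difference. They were low to middling: heights ran from 11 to 24 tags with a median of 17, and 2 of the 11 exceeded the library median of 20 tags. All NanogBiD peaks of this kind in the genome had a median of 15 tags. The highest 2, both of 24 tags, lay at -89.0 kb in an intron of Gpatch2l and at -51.3 kb between genes. Further upstream summits lay at -82.5 kb (18 tags), -80.0 kb (16 tags) and -43.4 kb (11 tags). In intron 1 there were summits at 10.04 kb (17 tags), 34.4 kb (20 tags), 56.9 kb (20 tags), 72.5 kb (11 tags) and 89.8 kb (12 tags), and intron 2 held 1 at 123.5 kb (12 tags). Since the gene was chosen by its Nanog counts, nothing is read from how many of the 11 stood alone. At 9 of the 11 sites no other library had a peak, against 49.6% of such NanogBiD peaks in the genome. The exceptions were 72.5 kb, where Oct4BiD and both Nr5a2 libraries also had peaks, and 123.5 kb, where the peak touched those of both Nr5a2 libraries.

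Oct4BiD had 4 summits at Esrrb where native Oct4 had 0. The Oct4BiD list held 93978 peaks and the native list 54794, and 57.6% of all Oct4BiD peaks had no native Oct4 peak. Between these libraries 37.1% of 18718 genes were at least 2-fold higher with BiD, 0.497% at least 2-fold lower, and the median gene stood at a log2 ratio of 0.85. The share of 0.426 per 10000 peaks in Oct4BiD lies below the limit of 0.548 for native Oct4, so a difference was not detectable once list size is considered. The highest Oct4BiD summit, of 23 tags, stood at -31.5 kb between genes and was the only one of the 4 above the library median of 19 tags. Its sequence, shown above, holds the octamer 31 bp from the summit. The others were of 12 tags at 3.08 kb, 12 tags at 3.76 kb and 9 tags at 72.5 kb. The nearest native Oct4 summit downstream lay 12.8 kb past the end of the gene, at 173.3 kb, with 12 tags, and Oct4BiD had 18 tags there.

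Few Sox2 summits lay at the locus. Native Sox2 had 1 summit, of 66 tags at -99.3 kb on an exon of Gpatch2l, and Sox2BiD had 55 tags 10 bp away. These were among the higher peaks of their lists, and 1.54% of native Sox2 and 5.38% of Sox2BiD peaks were at least as high. The other Sox2BiD summit, of 15 tags, lay at 63.0 kb in intron 1. With 3 summits in all, Esrrb fell under the minimum of 4 summits for a gene ratio. Between the Sox2 libraries 69% of 19148 genes were at least 2-fold higher with BiD and 0.141% at least 2-fold lower.

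Nr5a2 occupied the most positions at Esrrb, with fewer summits in the BiD form, at densities near those of the median gene. Native Nr5a2 had 7.29 summits per 100 kb against 7.0 at the median gene, and Nr5a2BiD 4.22 against 4.5. Native Nr5a2 had 19 summits and Nr5a2BiD 11, a log2 ratio of -0.76 (exact 95% interval -2.01 to 0.36, counting error only), so the counts differed by less than their counting error. The median gene stood at -0.53 between these libraries, 10.5% of 18962 genes were at least 2-fold lower with BiD and 0.148% at least 2-fold higher. At Esrrb 10 of the 11 Nr5a2BiD summits lay under a native Nr5a2 peak, and 1 (17 tags at -99.6 kb, beside the Sox2 summits) did not, against 14% of all Nr5a2BiD peaks. Native Nr5a2 had 9 summits without a Nr5a2BiD peak, against 39.3% of its list. These 9 were low, from 11 to 19 tags, under the library median of 21. They lay at -57.2, -31.1, -13.1, -3.24, 19.7, 48.1, 95.4, 102.8 and 152.6 kb.

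**Figure D3:**
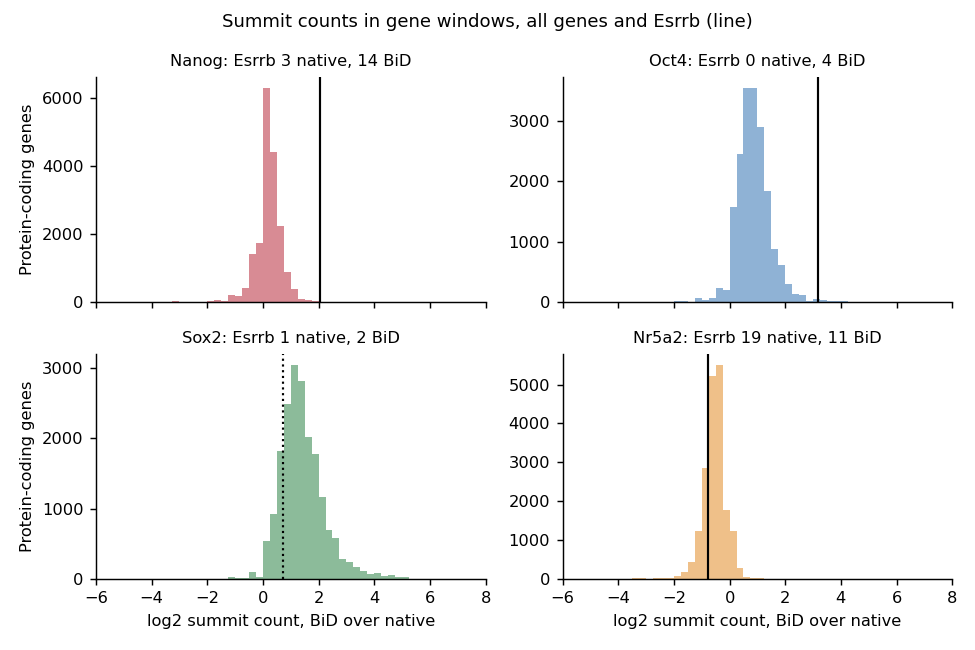
Histograms of the log2 ratio of summit counts, BiD over native with 0.5 added, over protein-coding genes with at least 4 summits, for the 4 factors; the y axis counts genes. The line marks Esrrb (dotted for Sox2, where it has 3 summits): at 2.05 for Nanog, the contrast by which the gene was chosen, it lies in the upper tail, and at -0.76 for Nr5a2 it lies near the median of -0.53.

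At the 10 positions with peaks of both Nr5a2 forms, the native summit was higher at 7, against 63.5% of such positions in the genome. The median log2 ratio of heights, BiD over native, was -0.56 (SD 0.66 over 10 sites) at Esrrb and -0.18 in the genome. Summits of both forms at Esrrb lay a median of 67.5 bp apart, and over the 7 sites with summits within 100 bp of each other the median ratio was -0.36. The log2 ratio was lowest at 4 positions in intron 1. At 37.8 kb native Nr5a2 had 52 tags and Nr5a2BiD 20, and at 41.9 kb they had 36 and 15, with summits at most 15 bp apart. At 4.49 kb they had 57 and 24 tags, but 634 bp apart, and at 14.8 kb 29 and 13 tags, 482 bp apart. In intron 2, at 122.5 kb, native Nr5a2 had 78 tags, which 0.680% of its peaks reached, and Nr5a2BiD had 46. Upstream, within Gpatch2l, the forms were closer: 52 and 55 tags at -97.2 kb, and 50 and 39 tags at -77.7 kb. Nr5a2BiD also had the higher summit at 72.4 kb (18 against 14 tags) and at 85.7 kb (16 against 15), and at 65.3 kb native Nr5a2 had 28 and Nr5a2BiD 25. The library medians were 21 tags in both forms.

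**Figure D4:**
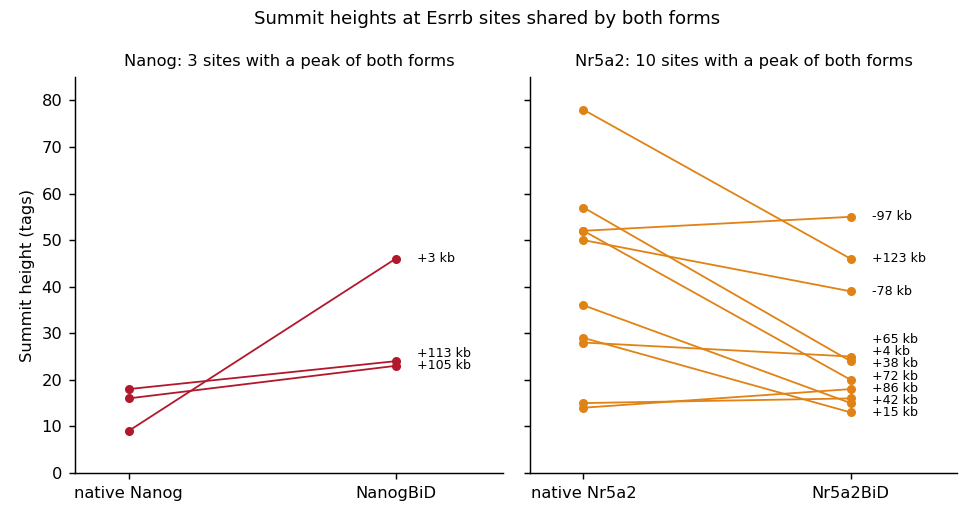
Summit heights in tags at Esrrb positions with peaks of both forms, joined by lines and named by distance of the native summit from the first start site. NanogBiD is higher at 3 of 3 positions, and native Nr5a2 is higher at 7 of 10.

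Of the 32 sites, 5 had peaks of at least 2 factors, against 28.5% of all merged regions of the genome. NanogBiD alone made up 9 of the 32, and the gene was chosen by its Nanog counts. So nothing is read from this share or from those that follow. There were 18 sites with peaks of 1 library, or 56.2%, against 46.0% of merged regions in the genome, and 10 with peaks of 2, or 31.2%, against 30.3%. A further 2 sites had peaks of 3 libraries (6.25% against 8.75%), 1 of 4 and 1 of 5, and no site had peaks of more than 5 libraries or of all 4 factors. The commonest patterns were NanogBiD alone at 9 sites, native Nr5a2 alone at 8, both Nr5a2 libraries at 7 and both Nanog libraries at 2. The 5 sites with more than 1 factor lay at -99.3 kb (both Sox2 libraries and Nr5a2BiD), -31.5 kb (Oct4BiD and native Nr5a2), 4.49 kb, 72.5 kb and 122.5 kb.

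The site with peaks of the most libraries lay in intron 1, just downstream of the first exon, from 86363166 to 86366933. It held 46 tags of NanogBiD, 9 of native Nanog, summits of 12 and 12 tags of Oct4BiD, 57 of native Nr5a2 and 24 of Nr5a2BiD, and native Oct4 and both Sox2 libraries had no peak there. It is a chain of overlapping peaks whose summits spread over 2050 bp. At its 5′ end the NanogBiD summit lay 29 bp from that of Oct4BiD at 3.08 kb, and native Nanog followed 177 bp further. The octamer word of the Oct4BiD sequence shown above, at 86364155 to 86364162, was covered by the peaks of Oct4BiD, NanogBiD and native Nanog. The native Nr5a2 summit lay 1387 bp beyond that of NanogBiD, and that of Nr5a2BiD a further 634 bp away. The native Nr5a2 peak had a score of 786 and ranked 715 of 108030 in its list. Around that summit stood TCAAGGTCA, 17 bp away, and TCAAGGCCA on the minus strand, 24 bp away, with an AP-1 word 27 bp away. The peaks of native Nr5a2, Nr5a2BiD and NanogBiD all reached over both NR5A words, though the Nr5a2BiD summit itself had none within 50 bp.

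**Figure D5:**
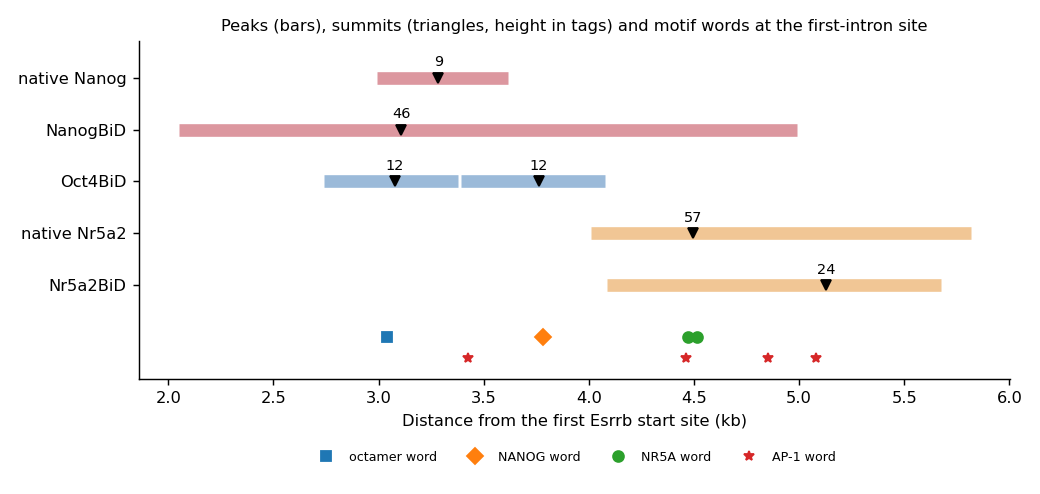
Peaks as bars, summits as triangles with their height in tags, and motif words as symbols, along the site in intron 1 by distance from the first start site in kb. Nanog and Oct4BiD summits gather near 3 kb beside an octamer word, and the native Nr5a2 summit of 57 tags lies at 4.49 kb on a pair of NR5A words.

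At 72.5 kb, in intron 1, from 86433252 to 86433992, the summits of 4 libraries lay within 80 bp. Their heights were 14 tags in native Nr5a2, 9 in Oct4BiD, 11 in NanogBiD and 18 in Nr5a2BiD. Each was below its library's median, and none of the searched words stood anywhere in the site. At 122.5 kb, in intron 2, the Nr5a2 summits lay 84 bp apart, and the NanogBiD summit of 12 tags lay 938 bp from that of native Nr5a2. That site held no NR5A word either, though it carried the highest summit of the locus. An AP-1 word stood 402 bp from that summit.

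Within 50 bp of the summit, 7 of the 54 summits held the motif of their own factor. For Nr5a2, words stood at 3 of 19 native summits, against 11.0% of that list, and at 2 of 11 Nr5a2BiD summits, against 7.89%. They were at 4.49 kb, 41.9 kb and 85.7 kb for native Nr5a2, and at 15.3 kb and 41.9 kb for Nr5a2BiD, where the forms share CCAAGGTCA on the minus strand. For Oct4BiD the octamer stood at 2 of 4 summits, at -31.5 and 3.08 kb, against 9.72% of its list. These words lay 31 and 37 bp from the summits, so within 25 bp it stood at 0 of 4, against 4.63% of the list. The NANOG word was at 0 of 14 NanogBiD summits (2.55% of the list) and 0 of 3 native Nanog summits (1.70%), and the SOX word at 0 of 1 native Sox2 summits (1.90%) and 0 of 2 Sox2BiD summits (3.29%). The only NANOG word within 50 bp of a summit lay 20 bp from that of Oct4BiD at 3.76 kb. Within 100 bp, 1 of the 14 NanogBiD summits held a NANOG word, against 4.29% of that list. AP-1 words lay at 1 NanogBiD summit, at 34.4 kb, against 8.65% of that list, at the Sox2BiD summit at 63.0 kb (9.01% of that list), and in the site around 4.49 kb at 1 of the 19 native Nr5a2 summits (6.07%) and 1 of the 11 Nr5a2BiD summits (7.76%). More than 50% of the bases around the summit were repeat sequence at 5 of the 54 summits, against 8.88% of all peaks. The NR5A word at 85.7 kb was the only match within a repeat.

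Other genes of the naive circuit and the Esrr family were counted in the same way, as a list of 12 chosen with earlier results known. Sall4, a zinc-finger factor of embryonic stem cells, went from 2 to 5 summits between native Nanog and NanogBiD and was the only 1 of the 10 with enough summits that was at least 2-fold higher, with 0 at least 2-fold lower, against 3.08% and 1.99% of all genes. Of the other members of the receptor family, Esrra had 9 and 11 and Esrrg had 19 and 26. Tcf7l1, which encodes the repressor named above, had 20 and 25, and Ncoa3 had 12 and 13. For Oct4, Klf5 (5 and 12) and Prdm14 (1 and 4) were at least 2-fold higher of 11 genes, under the 37.1% of all genes, and 0 were lower. For Sox2, 6 of 12 were at least 2-fold higher, under the 69% of all genes, and 1 (Nr0b1, 3 and 1) was lower. For Nr5a2, 0 of 11 were higher and 1 (Klf5, 9 and 4) was lower, close to the 10.5% of all genes. Over the whole list, native Nanog had 100 summits and NanogBiD 120.

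The genes whose counts per 10000 peaks ran most like those of Esrrb over the 8 libraries were 9530003J23Rik (Pearson's r 0.985 on the log2 scale), Trcg1 (0.984), Kcne2 (0.974), Atp1b4 (0.969) and Zfp282 (0.966), of 18190 genes with at least 27 summits. These r values rest on 8 points that share the same libraries and are given without a p. They do not compare levels. In Oct4BiD and Sox2BiD, 9530003J23Rik had 11 and 11 summits and Atp1b4 had 4 and 3, where Esrrb had 4 and 2. The counts of these genes in native Nanog and NanogBiD were, for example, 9 and 14 for 9530003J23Rik and 4 and 8 for Atp1b4. Esrrb was chosen by its own Nanog counts, so nothing is read from setting these against them.

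Few peaks lay near the edges of the window, but the Sox2 counts depend on the upstream edge. The outermost summits counted were those near -99.3 kb, just inside it. They are the only native Sox2 summit, the Sox2BiD summit beside it and the only Nr5a2BiD summit without a native Nr5a2 peak. The nearest summits left out upstream lay from 19.2 to 22.6 kb beyond the edge. Downstream, the nearest left out were a native Nr5a2 summit of 9 tags, 5.43 kb past the end of the gene, and the Oct4 pair 12.8 kb past it. The next protein-coding gene downstream, Vash1, starts at 317.6 kb.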

How the data were processed

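Per the study's methods and the submitters' processing notes, reads were trimmed (Trim Galore 0.6.4), mapped to mm10 (Bowtie2 2.4.5) and cleared of repetitive, poorly mapped and mitochondrial reads (SAMtools 1.16.1), so repeated sequence is under-covered, and the authors called peaks with MACS 1.4.2. The methods speak of merged replicates, and the reporting summary of an assay performed once. Each list here is 1 library. The deposited peak score is 10 times the log10 of the p-value from MACS with its sign reversed, by the authors (lowest 50, a p of 1e-05). Heights of summits were deposited by the authors as signal in whole tags, unscaled for depth. Higher depth raises both.

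Summits were placed on GENCODE M21 (mm10) and GRCm38 sequence in Python 3.11.15 (SciPy 1.17.1, pandas 2.3.3, NumPy 2.4.6) and drawn with matplotlib 3.10.9. Of all peaks, 110 lay off the placed chromosomes. Peaks sharing at least 1 bp were merged into sites. Gene ratios used 0.5 added to counts and genes with at least 4 summits, and genes 2-fold apart were counted. Intervals are exact at 95%. Window counts, merging and motif matching were tested on simulated data and were recovered. Esrrb, the gene lists and motifs were chosen with earlier results of these data known. Sites were described by a fixed rule (at least 3 factors, the highest summit of each library, NanogBiD without native Nanog, start sites, exons), as were genes (the 5 most like Esrrb over libraries, the 12 listed, and neighbours). Alternatives were other windows, score and height limits, scalings, summit distances and motif windows. The study's read totals entered 1 scaling and are not given. No further file was left out.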

Additional observations from a re-analysis of the deposited data

Results flagged for a closer look

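In sign alone, the BiD contrast at Esrrb did not run the same way for the 4 factors. On the log2 scale with 0.5 added, the summit count with BiD against native was above 0 for Oct4 (3.17, 4 and 0 summits), Nanog (2.05, 14 and 3 summits) and Sox2 (0.74, 2 and 1 summits), and stood at -0.76 for Nr5a2 (11 and 19 summits). The difference between factors was not tested, since each form had 1 library. The Oct4 value rests on the 0.5 added to a count of 0 and is no bound. The median gene ran the same way for each factor, with values of 0.85 (Oct4), 0.19 (Nanog), 1.30 (Sox2) and -0.53 (Nr5a2).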

How the results depend on the processing

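The 10 results were recomputed under alternatives that gave 47 values. Of these, 7 counts moved, 2 ratios reversed and 38 were tallied as the same. The 38 did not reverse and stayed within the main counting interval, the spread over sites or 1.5 times the main count. They include the Sox2 ratios of 0 given below, which kept no direction. The Nanog ratio ran from 1.44 (gene body only) to 3.91 (summits of at least 20 tags, where 0 and 7 summits were left and the 0.5 added to the count of 0 sets the value). The Oct4 ratio ran from 1.58 to 3.36, always against a native count of 0, and at 1.58 the 4 Oct4BiD summits had fallen to 1. The Nr5a2 ratio ran from -0.97 to -0.18. The Sox2 ratio rests on 3 summits: it reversed to -0.32 per 10000 peaks and was 0 with scores of at least 100, summits of at least 20 tags or the 50000 highest-scoring peaks. The height ratio at the shared Sox2 summit reversed to 0.13 when heights were set per uniquely mapped read pairs. Oct4 had no shared position, so no height ratio was computed. The 32 sites became 19 with scores of at least 100 and 20 in the gene body only. The 5 sites of at least 2 factors became 2 where summits had to lie within 100 bp, 2 within 200 bp, 2 with scores of at least 100 and 3 in the gene body only. Summits with the motif of their own factor fell from 7 to 3 within 25 bp of the summit and rose to 9 within 100 bp. No paired analysis was possible because each group holds 1 library. With 1 library per group, the spread between cultures is unknown. The NanogBiD summits without native Nanog had 11 to 24 tags where the lowest called heights of the lists were 6 to 10, and their number with replicate libraries was not tested.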
